A study of Mus musculus with 10 samples.

Results

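The classical cadherins and the catenins that bind their tails were followed in mouse molars cultured with or without insulin-like growth factor 1 (IGF1). Members were taken by gene symbol from the deposited table of counts per gene, and all 8 were present among its 18381 genes and among the 14504 genes tested: the cadherins Cdh1, Cdh3, Cdh2 and Cdh11 and the catenins Ctnna1, Ctnnb1, Ctnnd1 and Jup. All teeth were first lower molars of wild-type C57BL/6JOlaHsd embryos at embryonic day 14, kept for 6 h in hanging drops. From each of 5 embryos, numbered 1, 2, 3, 4 and 6, a single tooth received mouse recombinant IGF1 at 750 ng/ml, dissolved in phosphate-buffered saline with 0.1% bovine serum albumin, and the other tooth received an equal volume of that solution alone, with left and right sides balanced. This gave 5 IGF1 and 5 control libraries, each from whole tissue of a single tooth, so every value is a sum over the epithelium and mesenchyme of the tooth germ and its vessels and blood.

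In an adherens junction, a cadherin spans the membrane and binds the same kind of cadherin on the neighbouring cell. Inside the cell its tail holds β-catenin or plakoglobin, these hold α-catenin, and α-catenin reaches the actin cytoskeleton, while p120-catenin binds closer to the membrane and keeps the cadherin at the surface. E-cadherin (Cdh1) and P-cadherin (Cdh3) are carried by epithelia, and N-cadherin (Cdh2) and cadherin-11 (Cdh11) are mostly carried by mesenchyme and, in the case of Cdh2, by neural and some other tissues. β-catenin also carries the canonical Wnt signal to transcription factors of the TCF and LEF family. In the tooth germ, dental epithelium buds into and folds around condensing mesenchyme, so both kinds of cadherin are present in a single organ.

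The control libraries held between 2845773 and 8403151 counts and the IGF1 libraries between 3456634 and 8763113, and both teeth of embryo 1 had the lowest totals. Markers of both tissue layers were present in every tooth. The 20 epithelial markers summed to 2379 to 3717 CPM (counts divided by the library size and scaled to a common total) in the control teeth and to 2694 to 3737 CPM in the IGF1 teeth, and the 14 mesenchymal markers to 9847 to 12097 CPM and 8942 to 11699 CPM. Over all genes, IGF1 against control, paired by embryo, gave 1666 of 14504 genes with an adjusted p under 0.05 in edgeR's quasi-likelihood test, which is 11.5% of those tested, with 6.72% higher and 4.76% lower.

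Cdh3 was the 1 member of 8 that passed this test, and it was lower with IGF1, by 20.6%. The other 7 did not pass. An unadjusted p under 0.05 was found for 2 of the 8, Cdh3 and Cdh11, beside 26.5% of all genes tested. The median log2 fold change of the 8 members was -0.031, beside -0.0038 for all genes tested, so neither the count nor the median stood far from that background.

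**Figure D1:**
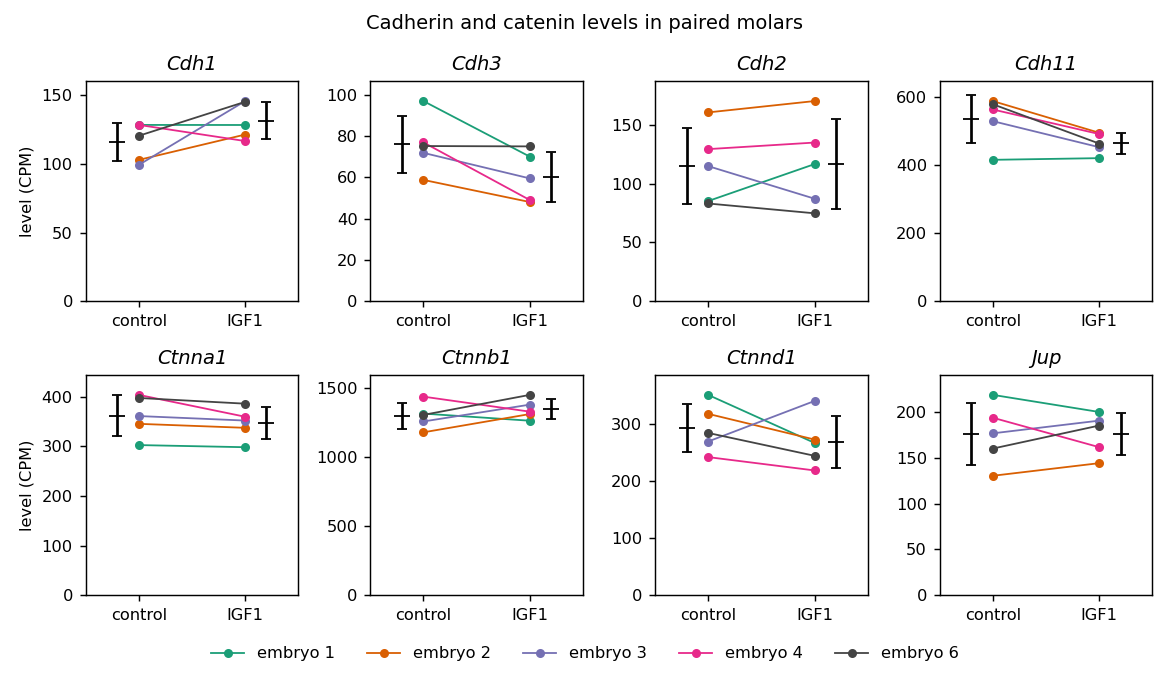
Level of each of the 8 members in CPM for the control and IGF1 teeth, with a line joining the 2 teeth of each embryo and bars for the mean ± SD of 5 teeth. The ranges of the control and IGF1 teeth overlapped for every member, and the lines of Cdh3 and Ctnna1 ran downward in 5 of 5 embryos.

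Cdh1 encodes E-cadherin, the main cadherin of epithelial adherens junctions. The gene lies on chromosome 8 from 106603351 to 106670246 on the plus strand (GRCm38, GENCODE release M21). The control teeth of embryos 1, 2, 3, 4 and 6 held 128.5, 103.0, 99.3, 128.5 and 120.6 CPM of Cdh1. With IGF1 the teeth held 128.4, 121.5, 145.9, 116.7 and 145.3 CPM in the same order. The groups overlapped, the lowest levels were those of control teeth 2 and 3, and the highest those of IGF1 teeth 3 and 6. The means were 116.0 ± 14.0 and 131.6 ± 13.5 CPM (SD, n = 5), and the log2 fold change of 0.19 (SE 0.096, 95% interval -0.022 to 0.40, edgeR adjusted p = 0.240) did not pass, with 3 of 5 embryos above 0. It ranged from 0.091 without embryo 3 to 0.27 without embryo 4, and passed in neither fit (adjusted p = 0.563 and 0.138).

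Cdh3 encodes P-cadherin, an epithelial cadherin known from basal layers and from ectodermal placodes. It is the neighbour of Cdh1, from 106510891 to 106557297 on chromosome 8, with 46.1 kb between the end of Cdh3 and the start of Cdh1, and both are read from the plus strand. Its control teeth held 96.9, 58.7, 71.8, 76.9 and 75.1 CPM for embryos 1, 2, 3, 4 and 6. The IGF1 teeth held 70.0, 48.0, 59.5, 49.0 and 74.9 CPM. In each embryo the IGF1 tooth lay below its control tooth, with log2 differences from -0.65 in embryo 4 to -0.0033 in embryo 6, while the ranges of the groups overlapped. The means were 75.9 ± 13.7 and 60.3 ± 12.1 CPM, and Cdh3 fell by 0.33 on the log2 scale (SE 0.094, 95% interval -0.54 to -0.13, edgeR adjusted p = 0.0439). This call lay close to the threshold and was lost with the adjusted p at 0.0514 in DESeq2's Wald test, 0.0593 with no filter on low counts, 0.0537 with the expression filter set from the design matrix and 0.237 without the pairing by embryo. It was also lost without embryo 1 (adjusted p = 0.131), 2 (0.0839), 3 (0.0698) or 4 (0.158) and held without embryo 6 (0.0276), and the fold change stayed negative in each of these fits.

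The epithelial markers had no common direction across the embryos, while Cdh3 was lower in each. The mean log2 CPM of the 20 epithelial markers changed by -0.07, 0.11, 0.36, -0.12 and 0.29 from control to IGF1 in embryos 1, 2, 3, 4 and 6 (mean 0.11 ± 0.21, SD), and 1 of the 20, Krt5, passed the test (log2 fold change 0.43, edgeR adjusted p = 0.0126), beside 6.72% of all genes higher. The markers lay on both sides of 0, with 7 of the 20 below it, Krt18 (-0.28, adjusted p = 0.0918) and Trp63 (-0.21, 0.234) the furthest, each lower in 4 of 5 embryos. Relative to that mean, Cdh3 moved by -0.40, -0.40, -0.63, -0.52 and -0.29, which is below 0 in 5 of 5 embryos (mean -0.45 ± 0.13). Cdh1 relative to the same markers moved by 0.072 ± 0.091 on average, with 3 embryos above 0. In bulk tissue, fewer cells of a type and less RNA per cell cannot be told apart.

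Within the epithelial pair, Cdh3 took a smaller part of the RNA in the IGF1 teeth. Levels of different genes were set side by side as CPM per kb of exon (CPM divided by the summed length of a gene's non-overlapping exons). On that scale Cdh3 made up 44.0%, 37.3%, 43.0%, 38.4% and 39.4% of the sum of Cdh1 and Cdh3 in the control teeth of embryos 1, 2, 3, 4 and 6. In the IGF1 teeth its share was 36.2%, 29.2%, 29.8%, 30.4% and 35.0%. The lowest control tooth lay above the highest IGF1 tooth, and Cdh1 was higher relative to Cdh3 by 0.27 to 0.82 on the log2 scale in 5 of 5 embryos (mean 0.52 ± 0.20). This pair was singled out after the values were seen, and it was given no test. The ratio of Cdh1 to Cdh3 per kb was 1.48 ± 0.18 in the control teeth and 2.14 ± 0.30 in the IGF1 teeth.

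Cdh11 encodes cadherin-11, a cadherin of mesenchyme and of cells of the bone lineage, and lies on chromosome 8 from 102632095 to 102785642 on the minus strand. In the control teeth it stood at 414.7, 586.9, 528.0, 562.2 and 577.6 CPM for embryos 1, 2, 3, 4 and 6. With IGF1 it stood at 419.6, 493.9, 451.6, 490.2 and 462.3 CPM. Embryo 1 had the lowest level in both groups, and in the other 4 embryos the IGF1 tooth lay below the control tooth. The means were 533.9 ± 70.3 and 463.5 ± 30.5 CPM, and the log2 fold change of -0.20 (SE 0.068, 95% interval -0.35 to -0.047) did not pass after adjustment (edgeR adjusted p = 0.0898). The mean of the 14 mesenchymal markers moved by -0.11 ± 0.081 on the log2 scale and was lower in 5 of 5 embryos. Against it Cdh11 moved by -0.087 ± 0.11, with 2 embryos above 0 and 3 below. Of these 14 markers 4 passed the test, all lower (Vim, Pdgfra, Pdgfrb and Zeb2), beside 4.76% of all genes, while Prrx2, Col1a1, Col1a2 and Lum had log2 fold changes of 0.017, 0.14, 0.10 and 0.22 and did not pass. Their part in the level of Cdh11 was not tested.

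Cdh2 encodes N-cadherin and lies on chromosome 18 from 16588877 to 16809246 on the minus strand. The control teeth held 85.2, 160.6, 114.9, 129.4 and 83.1 CPM of Cdh2 for embryos 1, 2, 3, 4 and 6. The IGF1 teeth held 116.6, 170.2, 87.2, 134.9 and 74.8 CPM. Embryos differed more than treatments did: both teeth of embryo 2 were highest in their group and both of embryo 6 lowest. The means were 114.6 ± 32.3 and 116.8 ± 38.1 CPM, with a log2 fold change of -0.0010 (SE 0.104, 95% interval -0.23 to 0.23, edgeR adjusted p = 0.997). The difference within embryos ran from -0.40 in embryo 3 to 0.45 in embryo 1. The neural and glial markers, a further tissue known to carry Cdh2, summed to 81.6 to 109 CPM in the control teeth and 76.5 to 101 CPM in the IGF1 teeth, and of the 3 tested Tubb3 was higher (log2 fold change 0.70, edgeR adjusted p = 0.0283).

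**Figure D2:**
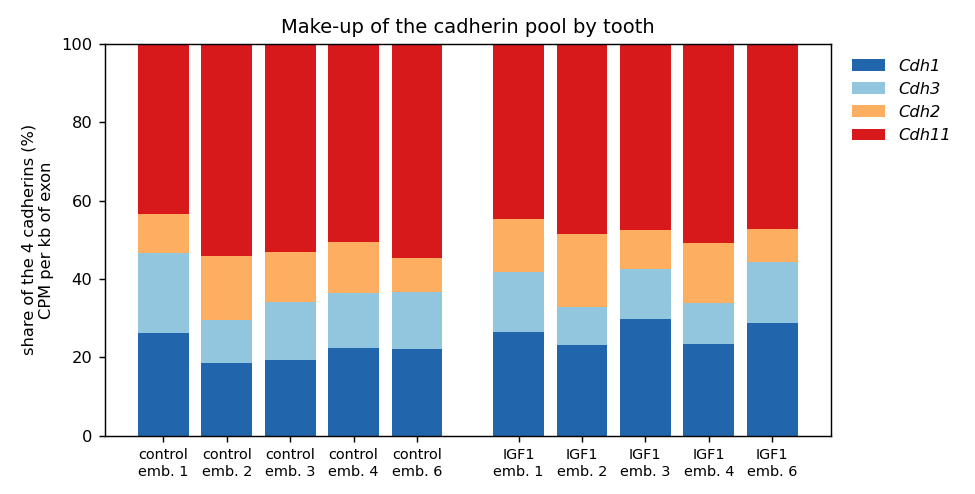
Percent of the summed level of Cdh1, Cdh3, Cdh2 and Cdh11, each as CPM per kb of exon, in every tooth, with control and IGF1 teeth grouped by embryo number. Cdh11 took the largest share in all 10 teeth, from 43.4% to 54.7%, and the smallest share was that of Cdh2 or Cdh3.

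Cdh11 was the most abundant of the 4 cadherins per kb of exon, with 59.96 ± 7.90 CPM per kb in the control teeth, followed by Cdh1 with 25.4 ± 3.1, Cdh3 with 17.3 ± 3.1 and Cdh2 with 14.2 ± 4.0. The last 2 of these neighbours lay within their spread. With IGF1 the order of the means was Cdh11 (52.1 ± 3.4), Cdh1 (28.8 ± 2.9), Cdh2 (14.5 ± 4.7) and Cdh3 (13.7 ± 2.8), and again the lowest 2 lay within their spread. Cdh11 made up 51.2% ± 4.6 of the sum of the 4 in the control teeth and 47.7% ± 2.2 in the IGF1 teeth. The share of Cdh1 was 21.8% ± 3.0 and 26.4% ± 3.0, that of Cdh3 14.95% ± 3.48 and 12.6% ± 2.7, and that of Cdh2 12.1% ± 3.0 and 13.2% ± 4.0. These shares sum to a fixed total and count RNA over the whole tooth, so they do not give the cadherins of a single cell.

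The balance of epithelial against mesenchymal cadherins, taken as the mean log2 CPM of Cdh1 and Cdh3 minus that of Cdh2 and Cdh11, was -1.38 ± 0.45 in the control teeth and -1.36 ± 0.46 in the IGF1 teeth. From control to IGF1 it moved by -0.47, 0.06, 0.45, -0.32 and 0.37 in embryos 1, 2, 3, 4 and 6. The mean difference was 0.017 ± 0.41 (SD, n = 5) with 3 embryos above 0, so the treated teeth had no common direction, and as a score over the members it was given no test. The balance was higher with IGF1 in embryos 2, 3 and 6, in which the epithelial marker mean was also higher, and lower in embryos 1 and 4, in which that mean was lower. The part of the tissue makeup in this pattern was not tested.

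The single pairs of cadherins did not all follow that score. Cdh1 relative to Cdh11 moved by -0.018, 0.49, 0.78, 0.059 and 0.59 on the log2 scale, which is above 0 in 4 of 5 embryos (mean 0.38 ± 0.34). Cdh1 relative to Cdh2 moved by 0.17 ± 0.55 with 3 embryos above 0, and Cdh3 relative to Cdh11 by -0.14 ± 0.33. The difference to Cdh11 was thus above 0 on average for Cdh1 and below 0 for Cdh3, although for Cdh3 the spread between embryos exceeded it.

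**Figure D3:**
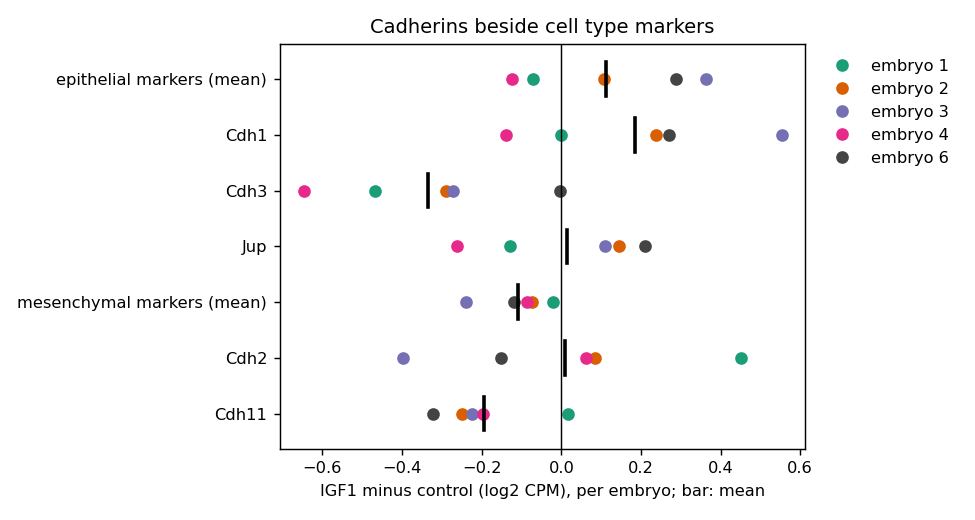
IGF1 minus control difference in log2 CPM for each embryo, for the mean of the epithelial markers, Cdh1, Cdh3 and Jup, and for the mean of the mesenchymal markers, Cdh2 and Cdh11. The points of Cdh3 lie below 0 in 5 of 5 embryos, from -0.65 to -0.0033, while those of Cdh1 and of the epithelial marker mean lie on both sides of 0.

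Ctnnb1 encodes β-catenin, the link from the cadherin tail to α-catenin and the effector of canonical Wnt signalling. It lies on chromosome 9 from 120929216 to 120960507 on the plus strand. The control teeth held 1314.4, 1178.7, 1257.3, 1437.1 and 1304.9 CPM of Ctnnb1 for embryos 1, 2, 3, 4 and 6, and the IGF1 teeth 1262.8, 1311.1, 1379.3, 1328.4 and 1450.0 CPM. It was lower with IGF1 in embryos 1 and 4 and higher in the other 3. The log2 fold change was 0.054 (SE 0.072, 95% interval -0.10 to 0.21, edgeR adjusted p = 0.684), and the interval leaves out a change of more than 0.21 on the log2 scale in either direction.

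Jup encodes plakoglobin (γ-catenin), which can take the place of β-catenin on classical cadherins and also belongs to desmosomes. The gene lies on chromosome 11 from 100368958 to 100397763 on the minus strand. Its levels were 219.2, 130.6, 177.1, 194.2 and 160.4 CPM in the control teeth of embryos 1, 2, 3, 4 and 6, and 200.4, 144.4, 191.0, 161.9 and 185.6 CPM in the IGF1 teeth. The tooth of embryo 1 was highest and that of embryo 2 lowest in both groups, and the log2 fold change was 0.016 (SE 0.081, 95% interval -0.16 to 0.19, edgeR adjusted p = 0.928).

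Ctnnb1 exceeded Jup by far on the scale of CPM per kb, with 250.1 ± 18.2 against 27.4 ± 5.2 in the control teeth and 259.3 ± 13.8 against 27.4 ± 3.6 in the IGF1 teeth. Jup was 9.82% of the sum of both in the control teeth and 9.57% in the IGF1 teeth. Relative to Jup, Ctnnb1 moved by 0.039 ± 0.077 on the log2 scale. The sum of Ctnnb1 and Jup per kb was 2.38 ± 0.23 times that of the 4 cadherins in the control teeth and 2.63 ± 0.16 times in the IGF1 teeth.

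Ctnna1 encodes αE-catenin, which couples the junction to actin, and lies on chromosome 18 from 35118859 to 35254779 on the plus strand. Its control levels were 302.7, 345.5, 361.2, 404.0 and 397.7 CPM for embryos 1, 2, 3, 4 and 6, and its levels with IGF1 were 298.3, 337.5, 352.1, 359.8 and 386.2 CPM. The IGF1 tooth was lower in 5 of 5 embryos, but the differences were small, from -0.17 in embryo 4 to -0.021 in embryo 1 on the log2 scale. The log2 fold change was -0.061 (SE 0.061, 95% interval -0.19 to 0.073, edgeR adjusted p = 0.577). Ctnna1 was the third of the 8 members per kb, with 56.4 ± 6.4 CPM per kb in the control teeth, within the spread of Cdh11.

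Ctnnd1 encodes p120-catenin, which binds the cadherin tail near the membrane and slows its removal from the surface. It lies on chromosome 2 from 84600071 to 84650765 on the minus strand. The control teeth held 350.1, 316.9, 268.5, 241.3 and 283.5 CPM for embryos 1, 2, 3, 4 and 6, and the IGF1 teeth 266.1, 272.0, 339.4, 217.9 and 243.5 CPM. Embryo 3 alone was higher with IGF1, by 0.34 on the log2 scale, and the other 4 were lower. These counts depend on how reads shared with another gene were divided, as given below. The log2 fold change was -0.13 (SE 0.095, 95% interval -0.34 to 0.084, edgeR adjusted p = 0.444), and it moved with single embryos, to -0.061 without embryo 1 (adjusted p = 0.777) and to -0.25 without embryo 3 (0.0413), where it passed.

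The counts of Ctnnd1 carry an uncertainty that those of the cadherins largely lack. Of the stretches of 31 bases in its transcripts, 58.6% also occur in transcripts of other genes, almost all in the readthrough gene Gm28635, so salmon had to divide shared reads between them. Gm28635 took from 5.29% (IGF1 tooth of embryo 3) to 37.1% (control tooth of embryo 4) of the sum of both. With both added together, a step chosen after the values were seen, the sum was 342 to 389 CPM in the control teeth and 314 to 358 CPM in the IGF1 teeth, with a log2 fold change of -0.14 (edgeR adjusted p = 0.250). In embryo 3, Gm28635 held 669 counts in the control tooth and 165 in the IGF1 tooth. The sum there was 347.5 and 358.3 CPM, so most of the rise of Ctnnd1 in that embryo was absent from the sum. In the other embryos the sum was lower with IGF1. The sum was not fitted with an embryo left out. Ctnnb1 shared 13.2% of its stretches with the overlapping gene Ulk4, which held 59 to 136 counts in a tooth. The other 6 members shared between 0.0230% (Cdh3) and 4.78% (Cdh11).

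**Figure D4:**
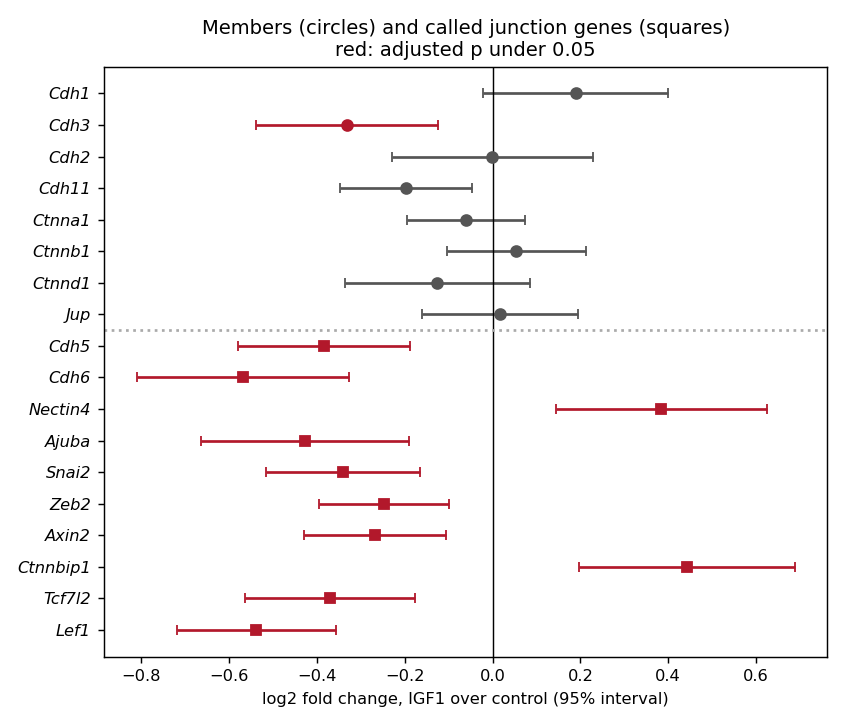
Log2 fold change (IGF1 over control) with its 95% interval from edgeR's quasi-likelihood fit for the 8 members (circles) and for the 10 genes of the other junction and β-catenin lists that passed the test (squares), with genes past an adjusted p of 0.05 in red. Cdh3 is the only member in red, and the interval of Cdh11 also lies below 0.

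Other genes of the junction and of β-catenin signalling were read from lists of 90 genes, of which 88 were in the table and 84 were tested. Of these 84, 2 passed the test as higher (Nectin4 and Ctnnbip1) and 8 as lower (Cdh5, Cdh6, Ajuba, Snai2, Zeb2, Axin2, Tcf7l2 and Lef1), so the lower calls were a larger share and the higher calls a smaller share than the 4.76% and 6.72% of all genes, a difference that was not tested. Without the pairing by embryo Cdh6 and Lef1 still passed, and the other 8 did not, with edgeR adjusted p from 0.0578 (Ctnnbip1) to 0.199 (Nectin4). The median of the 84 log2 fold changes was -0.011. No gene passed among 9 desmosomal genes (median 0.039), 12 genes of cadherin shedding and turnover (-0.0080) or 5 further catenins and relatives (-0.12). The most abundant gene in CPM within each of these lists was, in that order, Dsp, the desmosomal plaque protein desmoplakin (log2 fold change -0.010, edgeR adjusted p = 0.962), Ptprf, a receptor tyrosine phosphatase found at junctions (0.078, adjusted p = 0.549), and Pkp4, a relative of p120-catenin (-0.13, adjusted p = 0.234).

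Among 13 other cadherins tested, 2 passed, both lower, beside 11.5% of all genes called and 4.76% lower. The median log2 fold change was -0.22, beside -0.0038 for all genes, but the list had no common direction: 6 of the 13 had log2 fold changes above 0, and the median of the list within embryos ran from -0.50 in embryo 3 to 0.35 in embryo 1. Many of these genes had low levels. Control means of Cdh7, Cdh8, Cdh15, Cdh17, Cdh18 and Cdh22 ran from 1.62 CPM (Cdh22) to 3.61 CPM (Cdh17), and the list median was the value of Cdh17. Cdh5 encodes VE-cadherin, the cadherin of vascular endothelium. It held 157.7, 148.4, 152.0, 156.6 and 131.3 CPM in the control teeth of embryos 1, 2, 3, 4 and 6 and 146.3, 104.8, 92.2, 126.0 and 110.4 CPM in the IGF1 teeth. Each IGF1 tooth lay below its control tooth, and Cdh5 fell by 0.38 on the log2 scale (SE 0.089, edgeR adjusted p = 0.0188). The 8 endothelial markers, which do not include Cdh5, summed to 282 to 319 CPM in the control teeth and 221 to 312 CPM in the IGF1 teeth, with a median log2 fold change of -0.23 and 1 of 8 past the test (Esam, lower). The 6 red cell genes tested had log2 fold changes below 0, and 5 passed (Hba-a1, Hba-a2, Hbb-bt, Hbb-bs and Hbb-y), beside 4.76% of all genes lower, with the list summing to 849 to 1422 CPM against 604 to 1109 CPM. Of 6 macrophage markers 1 passed (Csf1r, lower). The part of these cells in the fall of Cdh5 was not tested, and the call of Cdh5 was lost without embryo 2 (adjusted p = 0.0537) or 4 (0.0545).

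Cdh6, a type II cadherin as Cdh11 is, held 28.5, 27.3, 25.8, 19.4 and 28.8 CPM in the control teeth and 20.7, 15.7, 15.5, 15.1 and 21.0 CPM in the IGF1 teeth of embryos 1, 2, 3, 4 and 6. The IGF1 tooth was lower in 5 of 5 embryos, and the lowest control tooth, that of embryo 4, lay among the IGF1 teeth. Cdh6 fell by 0.57 on the log2 scale (SE 0.11, edgeR adjusted p = 0.00758) and passed in every alternative fit run. At 2.88 CPM per kb in the control teeth, its level was far below that of Cdh11.

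Of the proteins next to the cadherins in the junction, 1 of 5 nectins and afadin (higher) and 1 of 13 actin linkers (lower) passed, beside 6.72% of all genes higher and 4.76% lower, and single genes of lists this short say nothing of the lists. Nectin4, an adhesion protein that is linked to actin through afadin, was higher in 5 of 5 embryos, with means of 22.1 ± 5.0 and 28.5 ± 5.0 CPM and a log2 fold change of 0.38 (SE 0.109, edgeR adjusted p = 0.0449). Without embryo 2, 3, 4 or 6 it no longer passed (adjusted p = 0.0709, 0.102, 0.132 and 0.165). Ajuba, a LIM protein that binds α-catenin, was lower in 4 of 5 embryos, with means of 60.8 ± 10.7 and 44.9 ± 8.4 CPM and a log2 fold change of -0.43 (SE 0.108, edgeR adjusted p = 0.0272). It no longer passed without embryo 1, 2, 3 or 4 (adjusted p = 0.0920, 0.0546, 0.0685 and 0.0924). Afdn, afadin itself, and Enah, an actin regulator, were each the most abundant of their list and had log2 fold changes of 0.033 and 0.038 (edgeR adjusted p = 0.825 and 0.771).

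Transcription factors known to repress or maintain Cdh1 gave 2 of 13 past the test, beside 11.5% of all genes called and 4.76% lower. Both are known repressors and both were lower, and the median log2 fold change of the list was -0.096. Snai2 (Slug) stood at 53.6, 61.4, 56.3, 49.6 and 49.4 CPM in the control teeth of embryos 1, 2, 3, 4 and 6 and at 41.2, 50.9, 47.5, 33.9 and 40.7 CPM in the IGF1 teeth, and fell by 0.34 on the log2 scale (SE 0.079, edgeR adjusted p = 0.0193). Zeb2 stood at 524.6, 577.5, 513.7, 500.4 and 466.5 CPM and at 425.6, 476.5, 488.8, 433.5 and 357.9 CPM, and fell by 0.25 (SE 0.067, edgeR adjusted p = 0.0367). Both were lower in 5 of 5 embryos and both are also known from mesenchyme, and Zeb2 is among the mesenchymal markers. The call of Snai2 was lost without embryo 1, 4 or 6 (adjusted p = 0.0595, 0.0848 and 0.0529) and that of Zeb2 without embryo 1, 2, 4 or 6 (0.118, 0.0817, 0.100 and 0.145). The other 11 factors of the list did not pass and lay on both sides of 0, from -0.71 for Ovol2 to 0.26 for Ovol1. Cdh1 itself had not passed, as given above.

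Of 14 genes of β-catenin turnover and TCF partners 4 passed, 1 higher and 3 lower, beside 11.5% of all genes called, 6.72% higher and 4.76% lower, and the median log2 fold change of the list was -0.11. The mesenchymal marker mean was also lower in 5 of 5 embryos, as given above, and its part in the levels of these genes was not tested. Lef1, a transcription factor that β-catenin binds, held 107.2, 119.2, 111.0, 110.4 and 151.9 CPM in the control teeth of embryos 1, 2, 3, 4 and 6 and 86.7, 69.1, 85.2, 71.7 and 102.4 CPM in the IGF1 teeth. The groups did not overlap, and Lef1 fell by 0.54 on the log2 scale (SE 0.082, edgeR adjusted p = 0.00219), a call that held in every alternative fit run. Tcf7l2, another TCF factor, held 84.2, 81.2, 75.1, 70.4 and 66.0 CPM and, with IGF1, 70.6, 49.3, 65.4, 57.7 and 50.5 CPM, and fell by 0.37 (SE 0.088, edgeR adjusted p = 0.0211). It was lower in 5 of 5 embryos, and the call was lost without embryo 2, 4 or 6 (adjusted p = 0.0591, 0.0535 and 0.0646).

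Axin2, a scaffold of the β-catenin destruction complex that is itself a known Wnt target, held 66.3, 67.8, 72.1, 92.6 and 71.9 CPM in the control teeth and 59.0, 54.9, 59.1, 69.3 and 65.0 CPM in the IGF1 teeth. It was lower in 5 of 5 embryos and fell by 0.27 on the log2 scale (SE 0.073, edgeR adjusted p = 0.0378), with the call lost when any embryo was left out (adjusted p from 0.0634 to 0.145). Ctnnbip1, which encodes an inhibitor that keeps β-catenin from TCF factors, held 23.7, 22.4, 20.2, 16.7 and 21.5 CPM in the control teeth and 30.2, 26.3, 34.3, 25.0 and 25.7 CPM in the IGF1 teeth. These groups did not overlap, and Ctnnbip1 rose by 0.44 (SE 0.111, edgeR adjusted p = 0.0268), with the call lost without embryo 1, 3 or 4 (adjusted p = 0.0552, 0.0769 and 0.0962). The other 10 genes of the list did not pass, Csnk1a1, a casein kinase of the destruction complex, being the most abundant in CPM (log2 fold change 0.11, adjusted p = 0.346).

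**Figure D5:**
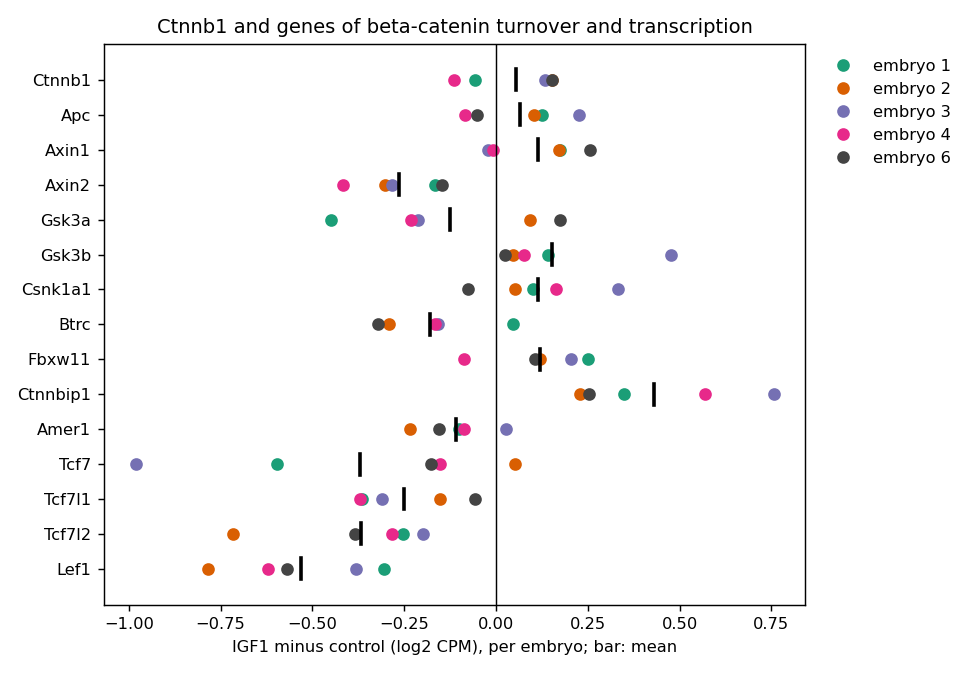
IGF1 minus control difference in log2 CPM for each embryo, for Ctnnb1 and the 14 genes of β-catenin turnover and TCF partners. The points of Lef1, Tcf7l2 and Axin2 lie below 0 and those of Ctnnbip1 above 0 in 5 of 5 embryos, while those of Ctnnb1 lie on both sides.

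Across the 10 teeth, some of the members varied along with a layer of the tooth and others did not. As a description over 10 teeth of 5 embryos, which share embryo and library, the log2 CPM of Jup and of Cdh1 followed the epithelial marker mean with Pearson's r of 0.90 and 0.85, Ctnnb1 with 0.68 and Cdh3 with 0.52. Cdh11 and Cdh2 ran against it (-0.73 and -0.72). Cdh2 followed the mesenchymal marker mean more closely (0.78) than Cdh11 did (0.40). Ctnna1 and Ctnnd1 followed neither layer, with r of -0.15 and 0.091 to the epithelial mean and -0.17 and -0.14 to the mesenchymal mean. For Ctnnd1 this was taken without the counts of Gm28635, whose part of the shared reads differed between teeth, and no r was computed for their sum. Between members, Cdh1 and Cdh3 had an r of 0.20, Cdh1 and Ctnnb1 0.78, Cdh3 and Jup 0.70, and Cdh2 and Cdh11 0.38.

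The genes whose levels were most like that of Cdh1, among 10864 others with a mean of at least 10 CPM, were Krt8 (r = 0.94, Spearman's rho = 0.85), Gm2115 (0.91 and 0.85), Spint2 (0.90 and 0.89), Tbccd1 (0.87 and 0.75) and Bahd1 (0.87 and 0.79). Krt8 encodes a keratin of simple epithelia and Spint2 a membrane-bound protease inhibitor of epithelia. For Cdh11 the most alike were Setd2 (r = 0.96, rho = 0.98), Poc5 (0.94 and 0.82), Dock11 (0.93 and 0.90), Tut7 (0.93 and 0.92) and Atp10d (0.92 and 0.92). None of these 10 genes passed the test between IGF1 and control, with edgeR adjusted p from 0.0545 (Dock11) to 0.522 (Tbccd1), although 2 of them passed in some alternative fits. Dock11 was called as lower in 3, without embryo 1 (adjusted p = 0.0376), in limma-voom (0.0387) and with at least 1 CPM required in every tooth (0.0367), and Krt8 as higher in 2, without embryo 4 (0.0492) and with at least 1 CPM required (0.0466).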

How the data were processed

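RNA of 10 single molars, 5 with IGF1 and 5 with vehicle, was analysed from the table of estimated counts per gene that the authors deposited without normalization. The submitters' processing notes name FastQC 0.11.8, Trimmomatic 0.39, Salmon 0.99.0, DESeq2 and the build GRCm38; the transcript set and row filter are not given in the sources used here. The values were whole numbers, each gene had at least 10 counts in all, and 94 of 18381 identifiers were absent from GENCODE M21. Libraries held 2845773 to 8763113 counts, and replicates differed by more than sampling noise (chi-square per degree of freedom 4.68 to 19.4).

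Counts were tested in edgeR 4.0.16 (R 4.3.3; quasi-likelihood, TMM, filterByExpr by group, embryo as replicate block, Benjamini-Hochberg over 14504 genes, threshold 0.05), a procedure tested on simulated data. The filter by group was set when the result of the filter by design matrix was also known, under which Cdh3 is not called. The labels take both teeth of a number from 1 embryo. Departures from the group mean correlated between paired teeth with r = 0.459 (embryo 1), 0.242 (embryo 2), -0.0448 (embryo 3), 0.204 (embryo 4) and 0.381 (embryo 6). The median between a control and an IGF1 tooth of different embryos was -0.0492, so the teeth of embryo 3 were about as unlike as unpaired teeth. CPM used TMM-scaled library sizes, log2 CPM a prior count of 2, and exon lengths and coordinates GENCODE M21. Alternatives were RLE size factors, DESeq2 1.42.0, limma-voom 3.58.1, other filters, no block, each embryo left out, a prior count of 0.5 and the sum of Ctnnd1 and Gm28635.

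Members and gene lists were chosen with earlier results of these data known. The genes named are the members, the genes of each list that passed, the most abundant of each list, and the 5 genes most correlated with Cdh1 and with Cdh11; markers are named where they passed, and the others named were chosen after their values were seen.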

Additional observations from a re-analysis of the deposited data

Results flagged for a closer look

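For 34 genes (the members, the genes named of the junction lists and those most like Cdh1 and Cdh11) and the cadherin balance, 70 groups of 5 teeth were examined for a single tooth far from the others, of which chance gives about 1 in 20 (3.5), and 5 were found. Axin2 in the control tooth of embryo 4 held 92.6 CPM, against 66.3 to 72.1 CPM in the other control teeth. Lef1 in the control tooth of embryo 6 held 151.9 CPM, against 107 to 119 CPM. Setd2 in the control tooth of embryo 1 held 319 CPM, against 405 to 419 CPM. Poc5 was low in both teeth of embryo 1, at 33.7 CPM against 44.2 to 45.3 CPM in the other control teeth and at 33.1 CPM against 37.1 to 38.6 CPM in the other IGF1 teeth. Setd2 and Poc5 were those most like Cdh11 in pattern, and Cdh11 was also lowest in embryo 1, whose libraries had the lowest totals. None of the 8 members held such a tooth.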

How the results depend on the processing

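Of the 8 members, 1 was called. The count was 0 with DESeq2, with no filter on low counts, with the expression filter by design matrix (chosen after the values were seen) and without the replicate block, and from 0 to 1 with an embryo left out, where the 1 was Cdh3 without embryo 6 and Ctnnd1 without embryo 3. The log2 fold change of Cdh3 ran from -0.42 to -0.25 over all alternatives. Without the block, all genes called numbered 887 in place of 1666 and those of the junction lists 2 in place of 10; with an embryo left out they ran from 986 to 1602 and from 3 to 8. The cadherin balance ran from -0.092 to 0.138 with an embryo left out. With an embryo left out, Cdh11 ran from -0.25 to -0.17, Ctnna1 from -0.071 to -0.034 and Ctnnb1 from 0.025 to 0.096, none of them called. The small fold change of Cdh2 turned sign without the block (0.021). Cdh2 ran from -0.099 (without embryo 1) to 0.097 (without 3), Jup from -0.037 (without 6) to 0.087 (without 4), Dsp from -0.10 (without 3) to 0.073 (without 4), Afdn from -0.015 (without 2) to 0.079 (without 1) and Enah from -0.018 (without 3) to 0.072 (without 4), each over the fits with an embryo left out. None of these was called in any fit, and the cause was not tested. DESeq2 also lost Nectin4 (adjusted p = 0.124), Axin2 (0.0907) and Ctnnbip1 (0.0622), and the fit with no filter lost Nectin4 (0.0537) and Axin2 (0.0522). With 5 pairs, precision was limited: the widest 95% interval of a member, that of Cdh2, ran from -0.23 to 0.23.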
